A study of Sus scrofa with 12 samples.

Results

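Apolipoproteins are the proteins that coat lipoproteins, the particles in which the liver sends triglyceride and cholesterol into the blood. Examined here were 9 genes: 7 plasma apolipoproteins (APOA1, APOA2, APOA4, APOB, APOC3, APOE and APOM), APOH, a plasma protein that also binds lipid, and MTTP, the transfer protein that loads lipid onto APOB. They were chosen by gene symbol, as every probe set on the array whose annotated symbol is 1 of the 9. This gave 10 probe sets of the 24123 on the array, 1 per gene and 2 for APOE. All 10 passed the filter on dim signals, and they belong to the 15999 probe sets tested and to the 5810 genes with a tested probe set.

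Liver RNA of 12 adult German Landrace pigs was hybridised to the Affymetrix porcine array, 1 array per animal. The animals were labelled by 2 crossed factors in a study of psychosocial stress, stress response and aggressiveness, each high or low. The groups are written with stress response first: high-high, high-low, low-high and low-low. Each held 3 animals, 2 males and 1 female, so each level of a factor held 6, and the females were high-high 3, high-low 1, low-high 3 and low-low 1. All groups shared breed and tissue. The labels used here give neither an exact age nor the way stress response and aggressiveness were scored. They do not say how long before sampling any stress lay.

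Hepatocytes build very low density lipoprotein around APOB in the endoplasmic reticulum, where MTTP transfers triglyceride to the growing particle, and the Golgi passes it on to the blood. High density lipoprotein is formed outside the cell from secreted APOA1 and APOA2, which take up cholesterol and phospholipid. The exchangeable apolipoproteins APOC3 and APOE then set how fast particles are broken down by lipases and taken up by receptors.

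Values are the deposited probe set signals, a linear intensity. Fold changes are differences of log2(signal + 16), high minus low, with a standard error (SE) from a limma model that held both factors and sex. Passing means a p under 0.05 after Benjamini-Hochberg adjustment over all 15999. Arrays correlated with each other at 0.947 to 0.970, and the lowest median correlations belonged to high-high 3 (0.954), low-high 3 (0.955) and high-low 3 (0.956). Of 15 hepatocyte markers 13 were on the array, with mean signals from 8048 (TAT) to 47289 (ALB), as the tissue label states. In whole liver, fewer hepatocytes and less RNA per hepatocyte cannot be told apart. The number of arrays limits the precision.

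None of the 10 probe sets passed for stress response, for aggressiveness, for their interaction or for sex. Between high and low stress response the fold changes were small, with a median of -0.02 on the log2 scale over the 10 probe sets and 0.03 over all probe sets tested. APOM, the high density lipoprotein protein that carries sphingosine-1-phosphate, was the 1 gene with an unadjusted p under 0.05 in any comparison, for the interaction of both factors and for aggressiveness within high stress response. The widest spread between animals belonged to MTTP, where 1 high-high male had a far lower signal than the others. The 6 brightest of the genes followed the level of the other bright probe sets on their array.

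**Figure D1:**
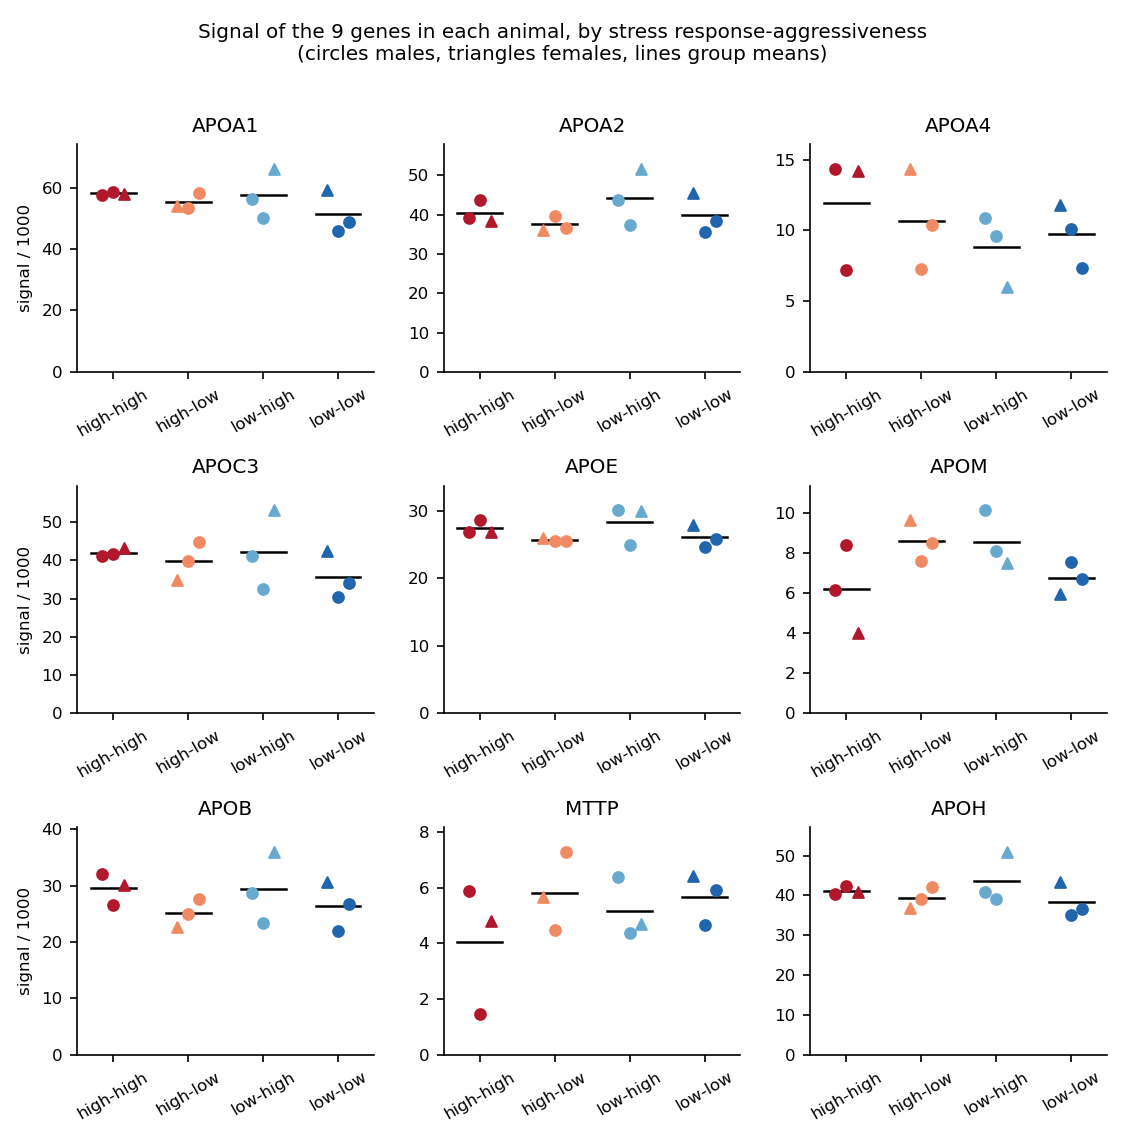
Deposited signal divided by 1000 (vertical axes, starting at 0) of the 9 genes in each of the 12 animals, by group, with stress response named before aggressiveness; circles are males, triangles females and lines the means of 3 animals. APOE is shown by its bright probe set. MTTP of high-high 2 lies at 1476, and APOM is lowest in high-high 3 at 4014.

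APOA1, the main protein of high density lipoprotein and the activator of the enzyme that esterifies its cholesterol, had the highest mean signal of all probe sets on the array, 55567 ± 5467 (SD, n = 12). Its signals were 57674, 58719 and 58106 in the high-high animals and 53956, 53268 and 58395 in the high-low animals. They were 56377, 50198 and 66150 in the low-high animals and 59167, 45963 and 48830 in the low-low animals. The 3 high-high animals lay close together, while the low-high and low-low animals spanned more than the whole range of those with high stress response. The log2 fold change was 0.07 ± 0.11 (SE) for stress response and 0.12 ± 0.11 for aggressiveness. The 95% confidence interval for stress response allowed from 0.892 to 1.23 times the signal of low animals.

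APOA2, the other major protein of high density lipoprotein, ranged from 36118 through a median of 38738 to 43778 at high stress response, against 35623, 41112 and 51662 at low stress response. Its highest signals were in low-high 3 and low-low 1, both females, and the levels overlapped throughout. The log2 fold change for stress response was -0.10 ± 0.11 (SE), and it was 0.04 in males alone. For aggressiveness it was 0.13 ± 0.11.

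APOM had signals of 6125, 8411 and 4014 in high-high animals and 9624, 7573 and 8507 in high-low animals. In low-high animals they were 10114, 8085 and 7480, and in low-low animals 5967, 7521 and 6687. The means were thus 6183 ± 2199 in high-high, 8568 ± 1027 in high-low, 8559 ± 1380 in low-high and 6725 ± 778 in low-low animals (SD, n = 3 each). The 2 groups in which the factors had opposite levels had the higher means, but single animals overlapped between groups. The interaction was -0.87 ± 0.33 (SE) on the log2 scale, with a 95% confidence interval from -1.61 to -0.13, an unadjusted p of 0.0255 and an adjusted p of 0.999 (limma). Among the animals with high aggressiveness, high minus low stress response gave -0.52 ± 0.24, and among those with low aggressiveness it gave 0.35 ± 0.24. Without high-high 3, the female with the lowest signal, the interaction was -0.62 (unadjusted p = 0.0770, limma), and in males alone it was -0.51. Neither main effect of APOM was beyond its error, with -0.09 ± 0.20 for both stress response and aggressiveness.

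APOC3, which slows the clearance of triglyceride-rich particles by inhibiting lipoprotein lipase, had signals of 41106, 41702 and 43157 in high-high animals and 34859, 39940 and 44795 in high-low animals. In low-high animals the signals were 41090, 32571 and 53055, and in low-low animals 42392, 30390 and 33941. The spread was smallest in the high-high group and widest in the low-high group, with SDs of 1055 and 10290 (n = 3 each). The log2 fold changes were 0.10 ± 0.14 (SE) for stress response and 0.16 ± 0.14 for aggressiveness, both within the error.

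APOE, the ligand through which the receptors of the low density lipoprotein receptor family take up remnants, has a bright and a dim probe set. The bright one varied least of all 10 probe sets, from 25529 through a median of 26407 to 28661 at high stress response, against 24704, 26943 and 30085 at low stress response. The range at low stress response enclosed the range at high stress response. Its log2 fold changes were -0.03 ± 0.10 (SE) for stress response and 0.10 ± 0.10 for aggressiveness. The dim probe set had a mean of 496 ± 69.1 (SD, n = 12) and log2 fold changes of 0.11 ± 0.14 and 0.01 ± 0.14. Over the 12 animals the APOE probe sets correlated only weakly with each other, with r = 0.30 and rho = 0.24, so they did not rank the animals alike. The bright one represents the gene below.

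APOA4, an apolipoprotein known in human mainly from the intestine, had signals of 14355, 7233 and 14234 in high-high animals and 14358, 7279 and 10370 in high-low animals. In low-high animals they were 10882, 9621 and 6022, and in low-low animals 11833, 10076 and 7313. Of the 4 highest signals, 3 came from animals with high stress response, but the levels overlapped. The log2 fold change for stress response was 0.26 ± 0.24 (SE), with a 95% confidence interval from 0.829 to 1.72 times. It was 0.047 without low-high 3, which had the lowest signal, and 0.0058 in males alone. For aggressiveness it was -0.0033 ± 0.24. Of 12 enterocyte markers 7 were on the array. FABP2, FABP6 and RBP2, at means of 18.7, 11.1 and 5.55, were left out by the filter on dim signals. LGALS4, SLC5A1, VIL1 and ANPEP passed it, at means of 55.0, 71.9, 220.1 and 1713. Their part in the signal of APOA4 was not tested.

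APOB, the structural protein of very low and low density lipoprotein, had signals of 32116, 26664 and 30133 in high-high animals and 22728, 24988 and 27649 in high-low animals. It had 28745, 23334 and 36000 in low-high animals and 30600, 21992 and 26839 in low-low animals. Both groups with high aggressiveness had the higher means, 29637 and 29360, against 25122 in high-low and 26477 in low-low animals, but the animals overlapped. The log2 fold change for aggressiveness was 0.19 ± 0.13 (SE), the largest above 0 among the 9 genes, and its 95% confidence interval ran from -0.10 to 0.48. For stress response it was -0.02 ± 0.13.

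MTTP, the endoplasmic reticulum protein without which APOB is degraded, had signals of 5887, 1476 and 4801 in high-high animals and 5672, 4486 and 7281 in high-low animals. In low-high animals the signals were 6389, 4367 and 4694, and in low-low animals 6424, 4674 and 5915. Apart from high-high 2 at 1476, all animals lay between 4367 and 7281. The log2 fold changes were -0.26 ± 0.31 (SE) for stress response and -0.43 ± 0.31 for aggressiveness, and -0.57 ± 0.62 for the interaction. They rested on that animal: without high-high 2 they were 0.04, -0.12 and 0.05. In high-high 2, APOB at 26664 and APOA4 at 7233 were also below their medians over all animals, 27244 and 10223. APOA1 at 58719 was above its median of 57025. APOA2, APOC3, the bright APOE probe set, APOH and APOM were above theirs too. Why MTTP was low in this animal was not tested.

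APOH, also called beta-2-glycoprotein I, ranged from 36769 through a median of 40603 to 42448 at high stress response, against 35207, 40044 and 50932 at low stress response. The log2 fold change was -0.02 ± 0.11 (SE) for stress response and 0.13 ± 0.11 for aggressiveness. The highest signal was that of low-high 3, which was also the highest for APOA1, APOA2, APOC3 and APOB.

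For stress response 0 of the 10 probe sets passed, as did 0 of all 15999 (0%), and the smallest adjusted p among the 10 was 0.833 (limma). The count was also 0 without high-high 3 and high-low 3, and without low-high 3. At an unadjusted p under 0.05 it was again 0 of 10, with 8.16% of all probe sets below it. In 4 probe sets the fold change was above 0 and in 6 below, where 55.7% of all were above. The animals of both levels overlapped in all 10, and 0.538% of all probe sets had 6 animals of each level without overlap. The bounds of the 95% confidence intervals lay between 0.523 and 1.72 times, both at the dimmer genes MTTP and APOA4. For the 6 genes with a mean signal over 20000 they lay between 0.783 and 1.32 times.

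**Figure D2:**
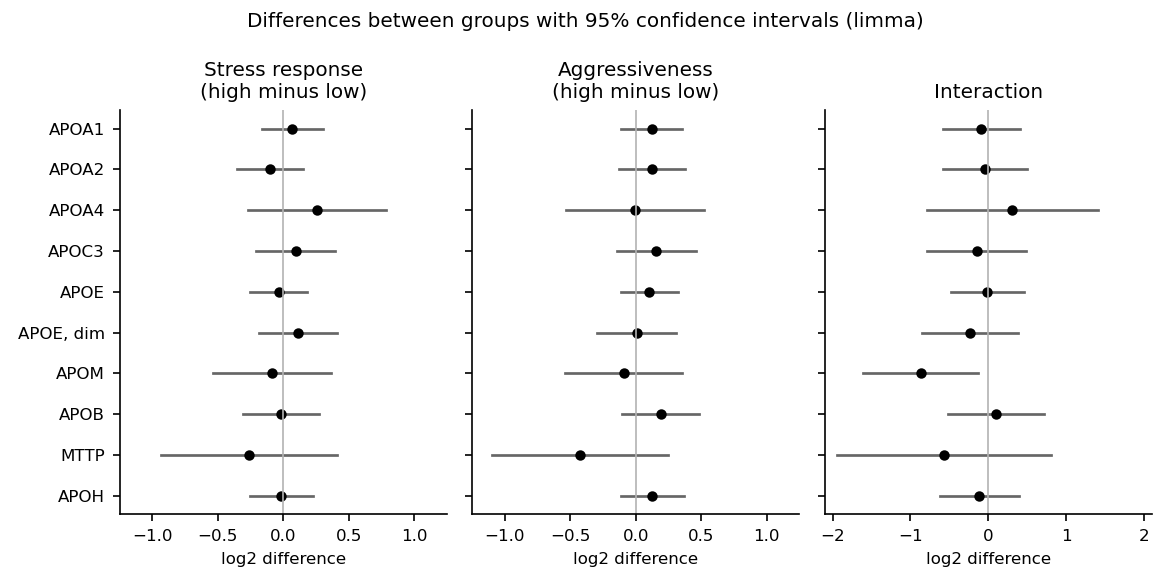
Log2 differences (horizontal axes) of the 10 probe sets for stress response, aggressiveness (high minus low, same scale) and their interaction (wider scale), as points with 95% confidence intervals from limma. Only the interval of APOM for the interaction, from -1.61 to -0.13, leaves out 0.

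For aggressiveness 0 of 10 passed and 0% of all probe sets, with adjusted p of 1.00 in each of the 10 (limma). The count at an unadjusted p under 0.05 was 0 of 10 as well, against 3.22% of all. The median of the 10 was 0.11 on the log2 scale, with 7 above 0 and 3 below, and that of all probe sets was 0.01 with 52.0% above. No probe set among the 10 separated the 6 animals of high from the 6 of low aggressiveness, which 0.0875% of all did. The 6 bright genes all had values between 0.10 and 0.19, and so had 12 of 13 hepatocyte markers values above 0, with a median of 0.13. Of the RNA quality controls, the log2 ratio of 3' to 5' signal of EF1A moved with this factor. It was 0.89 ± 0.09 at high and 0.72 ± 0.03 at low aggressiveness (SD over 6 animals). The animals did not overlap, with 0.757 the lowest at high and 0.748 the highest at low aggressiveness. The actin and GAPDH ratios did overlap. The mean over all these controls was 2.28 ± 0.10 at high and 2.19 ± 0.12 at low aggressiveness, again with overlap. With the EF1A ratio as a covariate the values of APOA1, APOA2, APOB, APOC3 and APOH were -0.03, -0.01, -0.21, -0.15 and -0.03. That of the bright APOE probe set was 0.02. As the EF1A ratio did not overlap between the levels, this refit can hardly separate it from aggressiveness. Of 14 alternatives it was the only 1 that changed the sign of APOA1, APOA2, APOB and APOH. The part of RNA quality in these values was not tested.

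The interaction passed in 0 of 10 and in 0% of all probe sets, and 1 of 10, APOM, had an unadjusted p under 0.05, against 3.87% of all (limma). In the simple effects, which compare levels of 1 factor within a level of the other, 0 of the 40 tests on the 10 probe sets passed. Stress response within high aggressiveness had 0 of 10 at an unadjusted p under 0.05, against 6.13% of all, and within low aggressiveness 0 of 10, against 5.12%. Aggressiveness within low stress response had 0 of 10, against 3.19%. Within high stress response it had 1 of 10, against 3.63%, and that was again APOM, with -0.53 ± 0.24 (SE, unadjusted p = 0.0485, limma). This value was -0.28 without high-high 3, -0.29 without high-low 1 and -0.16 in males alone, with unadjusted p of 0.266, 0.259 and 0.534 (limma). With all 12 animals the p was 0.0602 without the filter on dim probe sets, 0.0580 without sex in the model and 0.0876 after median centring. Aggressiveness within high stress response had 0.0125% of all probe sets past the adjusted threshold, none of them among the 10.

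Males and females did not differ in any of the 10 at the adjusted threshold, which 0.0688% of all probe sets passed (limma). At an unadjusted p under 0.05 the count was 0 of 10, against 5.21% of all. This depended on single animals. APOA4 had -0.54 without low-high 3 (unadjusted p = 0.0331, adjusted p = 0.888, limma). APOM had 0.52 without high-low 1 (unadjusted p = 0.0253, adjusted p = 0.774, limma). Still, 9 of the 10 fold changes, male minus female, were below 0, with a median of -0.13 against -0.04 over all probe sets. APOM alone was above 0, with 0.27 ± 0.22 (SE). Its signals averaged 7878 ± 1221 in 8 males and 6771 ± 2373 in 4 females (SD). The level of the 50 brightest other probe sets was lower in the males too, 40164 ± 3571 in males and 43954 ± 5248 in females (SD, n = 8 and 4). The part of that level in the fold changes for sex was not tested.

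Near the top of the scale the genes differed from the rest. A rank on the scale describes the deposited signal and is no measure of how much of 1 transcript there was against another. APOA1 was the brightest of all probe sets on 9 of the 12 arrays and among the 3 brightest on all 12, at 94.7% to 100% of the highest signal of the array. By mean signal APOH ranked 25, APOA2 27, APOC3 41, APOB 144 and the bright APOE probe set 153 among all that are not controls. MTTP, APOM and APOA4 ranked 877, 623 and 479. With a line at a mean signal of 20000, chosen after the data were seen, 6 of the 9 genes belonged to the 237 brightest probe sets.

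These 6 varied less between animals than most probe sets tested. Their SD of log2 signal ran from 0.098 (APOE) to 0.22 (APOC3). The median SD was 0.14 over the 237 bright probe sets and 0.32 over all tested. Among the 237, the SD of APOC3, APOB and APOA2 was above that of 86.1%, 84.4% and 64.1%. For APOA1, APOH and APOE the share was 52.7%, 49.8% and 14.3%. MTTP, APOA4 and APOM had SDs of 0.59, 0.43 and 0.36, while probe sets of a like mean signal had medians of 0.22, 0.20 and 0.22. Between the lowest and the highest animal APOE differed by 1.22 times and APOA1 by 1.44 times, but APOM by 2.52 and MTTP by 4.93 times. The last values each rest on 1 animal, high-high 3 for APOM (4014) and high-high 2 for MTTP (1476). Apart from these animals APOM ran from 5967 to 10114 and MTTP from 4367 to 7281. Whether the brightest probe sets were saturated was not tested.

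The level of the array moved with the bright genes. It was taken as the geometric mean signal of the 50 brightest probe sets that are neither controls nor any of the 10, a measure chosen after the data were seen. This level ran from 34794 in low-low 2 to 50721 in low-high 3, a ratio of 1.46. Over the 12 animals it correlated with APOC3 at r = 0.976, with APOA1 at 0.970, with APOH at 0.956, with APOB at 0.852, with APOA2 at 0.821 and with APOE at 0.805. The median r was 0.709 over the 237 bright probe sets and 0.084 over all tested. The 237 include the 50 that make up the level, so their median is in part a correlation of the level with itself. For APOA4, APOM and MTTP r was -0.20, -0.08 and -0.05. These correlations are descriptions, since all probe sets of an array share its scaling, RNA and hybridisation. What remained after a linear fit on the level was small for APOA1, with an SD of 0.035, and almost unchanged for MTTP, with 0.59.

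**Figure D3:**
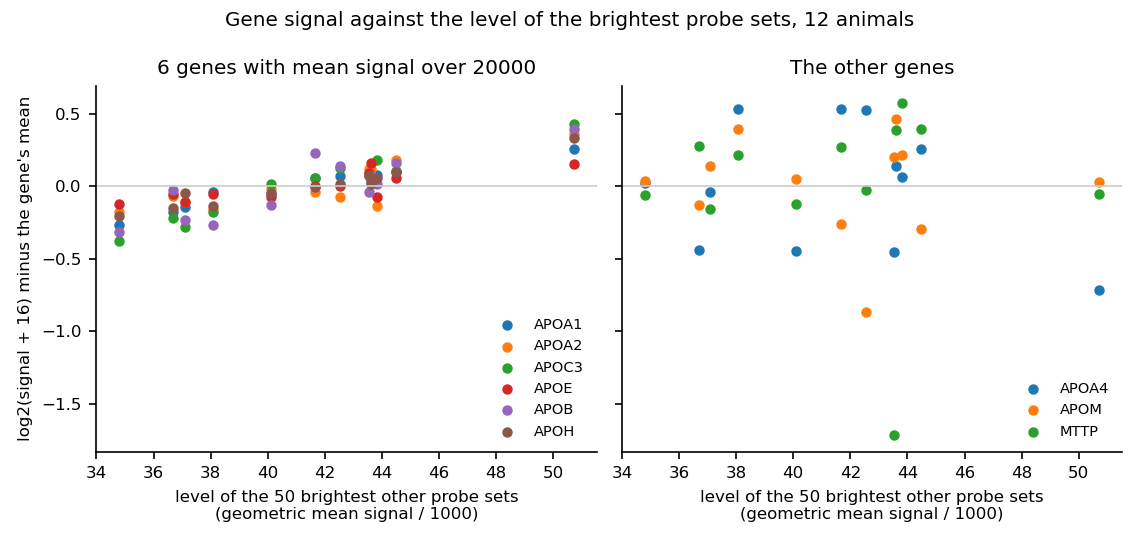
Log2(signal + 16) of each gene minus its mean over 12 animals (vertical axis) against the geometric mean signal of the 50 brightest other probe sets of the same array, divided by 1000 (horizontal axis), for the 6 genes with a mean signal over 20000 (left) and for APOA4, APOM and MTTP (right). The 6 bright genes climb with the level (r of 0.805 to 0.976), and the others have r of -0.20 to -0.05.

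The level itself averaged 41624 ± 2200 at high and 41231 ± 6091 at low stress response, and 43195 ± 4403 at high against 39660 ± 3893 at low aggressiveness (SD, n = 6 each). Its spread at low stress response was wide, with low-low 2 and low-high 3 both there. All 6 bright genes shared that pattern. The SDs of APOA1, APOC3, APOH and APOB at low stress response were 7544, 8419, 5678 and 5108, against 2416, 3416, 2106 and 3404 at high. Those of APOA2 and of the bright APOE probe set were 6073 and 2430 at low, against 2745 and 1193 at high stress response. Without low-high 3 the fold changes for aggressiveness of APOA1, APOA2, APOC3 and APOH were 0.08, 0.08, 0.08 and 0.07, against 0.12, 0.13, 0.16 and 0.13 with it.

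Among themselves the bright genes went together. The 15 pairs of the 6 bright genes had r from 0.71 to 0.96 over the 12 animals, with a median of 0.82, and rho from 0.52 to 0.96. In the 8 males r ran from 0.46 to 0.96. It ran from 0.47 to 0.94 without the 2 animals farthest from the median of the alphabetically first gene of each pair. Which animals were left out could thus differ between pairs. After the linear fit on the level of the brightest probe sets the same 15 pairs spread from -0.61 to 0.64, with a median of 0.0072. APOA2 and APOE kept the highest of these values, 0.64, with r = 0.88 before the fit and 0.92 in males. The 18 pairs of a bright with a dimmer gene had r from -0.47 to 0.15. Within the dimmer genes APOA4 and MTTP had r = 0.43 and rho = 0.52, APOM and MTTP r = -0.08, and APOA4 and APOM r = -0.27.

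**Figure D4:**
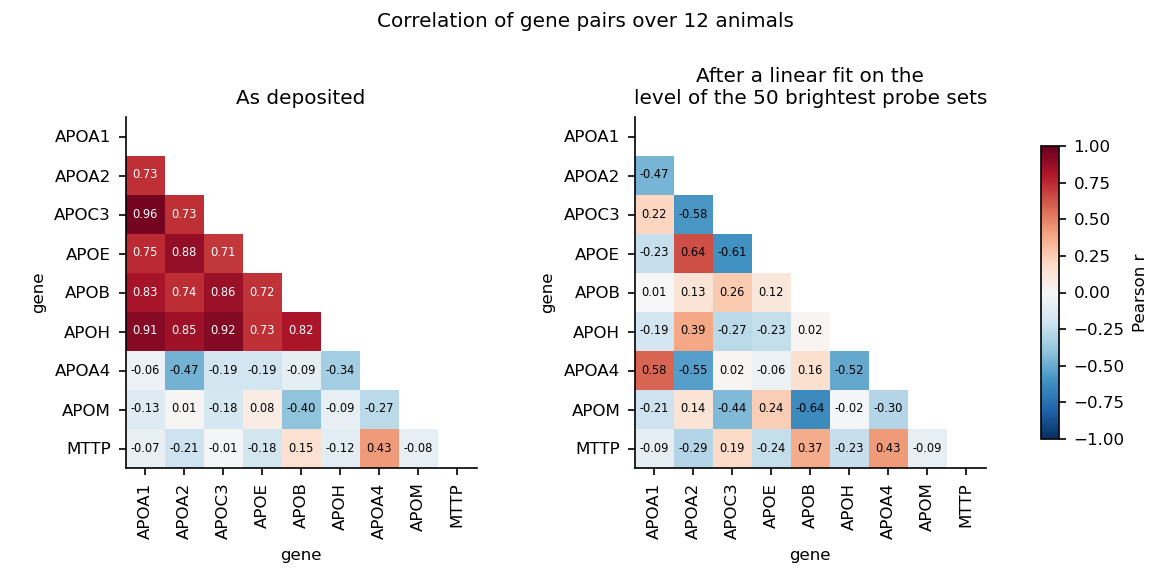
Pearson r of each pair of the 9 genes over 12 animals (colour and printed value), as deposited (left) and after a linear fit of each gene on the level of the 50 brightest other probe sets (right). The block of the 6 bright genes, with r of 0.71 to 0.96, is gone after the fit, where these pairs lie between -0.61 and 0.64.

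Neighbours in the genome did not all go together. In the RefSeq gene table of the Sscrofa11.1 assembly APOA4, APOC3 and APOA1 follow each other, with APOA5 close by. APOA1 and APOC3, which are adjacent, had r = 0.96 and rho = 0.93, and 0.22 after the fit on the level. APOA4 had r = -0.06 with APOA1 and -0.19 with its direct neighbour APOC3. APOE lies between TOMM40 and APOC4, followed by APOC2.

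The genes most like each of the 9 were sought among 5801 other genes by Pearson's r over the 12 animals. For APOA1 these were FGB (0.974), RPS23 (0.965) and GSTO1 (0.952), and for APOC3 they were ALB (0.989), UBB (0.986) and TF (0.980). APOA2 was most like PLG (0.945), TTR (0.924) and SPP2 (0.923), and APOH most like HPX (0.964), EF1ALPHA (0.963) and TTR (0.961). APOE was nearest to F9 (0.917), A1BG (0.908) and CFB (0.895). Every one of these had a mean signal over 20000, and most encode plasma proteins, among them fibrinogen beta, albumin, transferrin, plasminogen and transthyretin. APOB was nearest to CYP2C33 (0.915), also bright, and to the dimmer SLK (0.915) and TBK1 (0.900). For the remaining genes the nearest were not bright: DPH3 (0.885), PPP1R14A (0.870) and ELMO1 (0.857) for APOA4, and ACOX2 (0.878), TGFB1 (0.861) and URM1 (0.860) for APOM. MTTP was nearest to DNAL4 at r = 0.873, but rho was 0.58 there, 0.43 for MAGED1 and 0.38 for EMB. Each r here was picked as among the highest of 5801 over 12 animals. These values are descriptions, and how high r runs by chance was not tested.

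Around these genes, 5 lists of lipoprotein metabolism were described, and no gene of any list passed at the adjusted threshold for either factor (limma). The lists were chosen with earlier results of these data known, so counts within them are descriptions and no test of a list. Of 17 other apolipoproteins 6 were tested, with a median log2 fold change of 0.04 for stress response, 4 above 0 and 2 below. APOO, a mitochondrial inner membrane protein despite its name, had a median signal of 408 at high stress response, against 276 at low, and a log2 fold change of 0.53 ± 0.20 (SE, unadjusted p = 0.0206, limma). It was 0.37 without high-low 3. APOF and SAA2 followed, with -0.10 ± 0.11 and 0.10 ± 0.13.

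Assembly and secretion had 16 of 26 genes tested, with 8 above 0 and 8 below for stress response and a median of 0.06. As a description only, 3 higher and 1 lower had an unadjusted p under 0.05 (limma), against 8.16% of all probe sets in either direction. The higher ones were PDIA3, a disulfide isomerase, with 0.33 ± 0.11 (SE), SEC24D, a coat protein of the vesicles that leave the endoplasmic reticulum, with 0.49 ± 0.20, and HSP90B1, a chaperone, with 0.32 ± 0.13. PDIA3 ranged from 9234 through a median of 10727 to 13545 at high stress response, against 7714, 8877 and 9702 at low stress response. Without high-high 3 and high-low 3 PDIA3, SEC24D and HSP90B1 had 0.27, 0.41 and 0.28, with unadjusted p of 0.0636, 0.0842 and 0.0790 (limma). Here and below, this omission takes animals from high stress response only, and high-high 3 held the highest signals of PDIA3, SEC24D and HSP90B1. The omission keeps low-high 3, whose median correlation with the other arrays (0.955) was below that of high-low 3 (0.956). The lower one was DGAT2, which makes the triglyceride that MTTP loads, with signals from 983 through 3173 to 4949 at high stress response, against 3733, 5541 and 7524 at low stress response. Its log2 fold change was -1.10 ± 0.36, and -0.60 without high-high 3 and high-low 3, the animals with its lowest signals.

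Receptors and uptake had 9 of 21 genes tested, with 2 above 0, 7 below and a median of -0.13. SDC1, a proteoglycan of remnant uptake, had -0.47 ± 0.18 (SE), and SCARB1, the receptor for high density lipoprotein, had -0.29 ± 0.16. LRPAP1, the chaperone of the receptor family, had -0.27 ± 0.17. Without high-high 3 and high-low 3 these were -0.28, -0.13 and -0.09, and the list then had 4 above 0 and 5 below. Those animals held the lowest signals of SDC1 (1865 and 1956), SCARB1 (1049 and 1262) and LRPAP1 (1020 and 1479). Leaving them out therefore moves these values toward 0 and is no separate check of array quality.

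Lipases, transfer proteins and transporters of high density lipoprotein had 11 of 21 genes tested, with 2 above 0, 9 below and a median of -0.20, the lowest of the 5 lists. PON3, an antioxidant enzyme carried on high density lipoprotein, ranged from 3337 through a median of 6085 to 7762 at high stress response, against 7748, 9341 and 14573 at low stress response. The levels of PON3 thus just overlapped, and its log2 fold change was -0.83 ± 0.22 (SE, unadjusted p = 0.0030 and adjusted p = 0.522, limma). FABP1, the fatty acid binding protein of the liver, had -0.47 ± 0.16, and LIPA, the lysosomal acid lipase, had -0.39 ± 0.14. Without high-high 3 and high-low 3 the list median was -0.19, PON3 was -0.56, FABP1 -0.32 and LIPA -0.40. Those animals held the lowest signals of PON3 (4888 and 3337) and of FABP1 (20526 and 22923).

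Transcriptional regulators had 22 of 35 genes tested, with 10 above 0, 12 below and a median of -0.03. NR5A2, a nuclear receptor that drives bile acid and cholesterol transport genes, had 0.31 ± 0.12 (SE, unadjusted p = 0.0260, limma). It was 0.25 without high-high 3 and high-low 3, the animals with its highest signals (unadjusted p = 0.106, limma). PPARA, the fatty acid sensor, had -0.55 ± 0.27 at a dim signal, with a median of 56.5 at high stress response, against 108 at low, and INSIG2, which holds back sterol regulatory factors, had -0.40 ± 0.20.

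**Figure D5:**
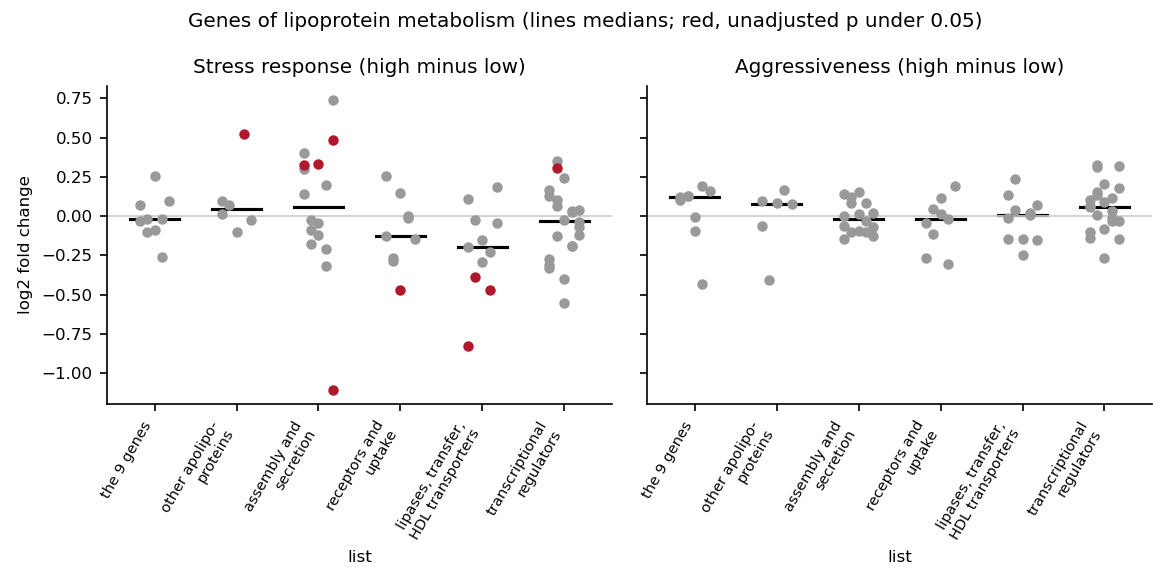
Log2 fold change (vertical axis) of the 9 genes and of 5 lists of lipoprotein metabolism for stress response (left) and aggressiveness (right), 1 point per gene, with lines at the list medians and red points where the unadjusted p was under 0.05. DGAT2 at -1.10 and PON3 at -0.83 are the lowest points for stress response, and no point is red for aggressiveness.

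For aggressiveness 0 genes of the 5 lists had an unadjusted p under 0.05, against 3.22% of all probe sets (limma). The list medians were 0.08 for other apolipoproteins, -0.02 for assembly, -0.02 for receptors, 0.01 for lipases and 0.06 for regulators. The genes with the smallest p were APOD (-0.41), APOO (0.16) and APOC2 (0.09) among apolipoproteins, and PDIA3 (0.15), CANX (-0.14) and CES1 (0.12) in assembly. Among receptors they were MYLIP (-0.30), NPC1 (0.19) and LRP6 (-0.26), and among lipases LIPC (-0.25), ABCG8 (0.24) and PON2 (-0.15). Among regulators they were THRB (0.31), RXRB (0.21) and INSIG2 (-0.26).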

How the data were processed

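The files hold probe set signals as a linear intensity for 12 arrays, made by the authors with GCOS 1.1.1 per the submitters' processing notes. How probes were summarised and arrays scaled is not given in the sources used here. The mean after trimming 2% at each end was 500.2 on every array, so the deposited intensity was used without further scaling. Signals ran from 0.149 to 66150.

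From 24123 probe sets, 124 controls and then the 33.3% of the other 23999 with the lowest mean log2 signal were left out, which left 15999. Gene symbols came from the annotation table of the array, in which 10099 probe sets had 1 symbol, 198 several and 13826 none. A gene was represented by its brightest probe set. Models of log2(signal + 16) were fitted with limma 3.58.1 in R 4.3.3, with stress response, aggressiveness and sex (8 residual degrees of freedom), and with their interaction for the interaction and simple effects (7). Intervals are limma's. The model was run on simulated data with independent noise in each probe set. That setting had no level shared by the bright probe sets of an array, so it cannot show how the model handles one.

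The members, the lists and the first alternatives were chosen with earlier results of these data known. Named were every member probe set, the 3 genes of each list with the smallest p for stress response and for aggressiveness, and the 3 genes most correlated with each member; HSP90B1 was added after its value was seen. Replicates are separate animals, numbered in the order of the labels, with no pairing between groups. The RefSeq table of Sscrofa11.1 gave neighbours only. Figures were drawn with matplotlib 3.10.9.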

Additional observations from a re-analysis of the deposited data

Results flagged for a closer look

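In 60 groups of 4 to 8 animals, formed for each of the 10 probe sets by the levels of stress response, aggressiveness and sex, 4 held an animal that lay apart from the rest by Dixon's ratio of gap to range. Chance gives about 3 such groups. The lowest MTTP signal, 1475.56 in high-high 2, accounted for 3 of them. It lay apart among the 6 animals with high stress response, where the nearest was high-low 2 at 4486. It also lay apart among the 6 with high aggressiveness and among the 8 males, where the nearest was low-high 2 at 4367. The remaining group was APOH at high aggressiveness, where low-high 3 had 50931.5 and the nearest animal, high-high 2, had 42448.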

How the results depend on the processing

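Over 14 alternatives and the omission of each animal in turn, 0 of the 10 probe sets passed for stress response, aggressiveness or their interaction, as in the simple effects, and for sex over 12 alternatives and the same omissions. No gene of the 5 lists passed either, for stress response or aggressiveness. The median r over the 36 pairs ran from -0.10 (quantile normalization) to 0.45 (males only), and from -0.04 to 0.26 with 1 animal left out. Signs changed in 21 of 260 refits for stress response and in 31 of 260 for aggressiveness, and the cause was not tested. For stress response, males alone gave 0.040 for APOA2, 0.14 for APOB, 0.017 for the bright APOE probe set and 0.12 for APOH. Array weights gave 0.026 for APOB and 0.0038 for APOH, adding the mean of the 3' to 5' control ratios gave 0.033 and 0.0049, and quantile normalization gave 0.0033 for APOB. Without high-high 3 and high-low 3 APOM was 0.054. With 1 animal left out, values for stress response ran from -0.084 to 0.060 for APOB, from -0.055 to 0.037 for APOH, from -0.25 to 0.083 for APOM and from -0.42 to 0.043 for MTTP. For aggressiveness, the EF1A ratio as a covariate gave -0.029 for APOA1, -0.015 for APOA2, 0.17 for APOA4, -0.21 for APOB, -0.15 for APOC3, -0.025 for APOH and 0.12 for APOM. The level of the 50 brightest probe sets as a covariate, added after the data were seen, gave 0.18 for APOA4, -0.025 for APOC3 and -0.074 for the dim APOE probe set. Males alone gave 0.24 for APOA4, -0.071 for dim APOE and 0.094 for APOM, and the mean ratio gave 0.15 for APOA4 and 0.012 for APOM. Dim APOE was -0.013 under median centring, -0.037 with array weights and -0.015 without high-high 3 and high-low 3, where APOM was 0.11. With 1 animal left out, values for aggressiveness ran from -0.12 to 0.21 for APOA4, from -0.058 to 0.076 for dim APOE and from -0.18 to 0.077 for APOM. The interaction of MTTP ran from -1.01 to 0.050, and that of APOM from -1.09 to -0.62, or -0.88 to -0.51 under the other alternatives. Its unadjusted p was at or above 0.05 under 4 of these alternatives and with 1 of 4 animals left out. No paired analysis was possible because the replicate numbers follow the order of the labels and pair no animals.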
